A study of Mus musculus with 6 samples.

Results

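The mouse mitochondrial genome encodes 22 transfer RNAs (tRNAs) and 2 ribosomal RNAs (rRNAs), and all 24 were found in small RNA libraries of mouse bone marrow cells. They were taken as every feature on chromosome MT that matched a GENCODE M21 gene of type Mt_tRNA or Mt_rRNA at the same start and end, and they are 24 of the 1823 features listed in at least 1 library. The choice used position and gene type and no measured value. The series' design text describes the cells as lineage-negative, the bone marrow fraction depleted of mature blood cells. Libraries of maternal knockout mice (KO, labelled Mat KO) and of wild-type mice (WT, labelled wildtype) were compared, with 3 of each, and their labels give no treatment, age or strain. The knockout concerns the Dlk1-Gtl2 imprinted locus named in the title, and the sources used here do not give the deleted segment. Whether separate animals gave the 3 libraries of a genotype is not stated, so p-values refer to the spread among these libraries, which could be technical.

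The mitochondrial genome is transcribed from both strands into long precursors in which tRNAs punctuate the rRNA and protein-coding genes. Cutting out the tRNAs by RNase P at the 5′ end and by the mitochondrial RNase Z at the 3′ end releases the neighbouring RNAs, after which the sequence CCA is added to each tRNA. The tRNAs decode the mRNAs of respiratory chain and ATP synthase subunits, and the rRNAs mt-Rnr1 and mt-Rnr2 are the cores of the small and large subunits of the mitochondrial ribosome. Here a gene annotated on the plus strand is called a heavy-strand gene, because the heavy strand is its template, and a gene on the minus strand is called a light-strand gene. There are 14 heavy-strand tRNAs, 8 light-strand tRNAs and 2 rRNAs, both of the heavy strand.

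The sequences shown are those of the 3 most abundant tRNAs, of neighbours of these (mt-Tl2 and mt-Tn), of the tRNA with the lowest genotype estimate (mt-Te) and of the least covered tRNAs (mt-Tk and mt-Tf). They are the genes' own sequences in GENCODE M21 on GRCm38, read 5′ to 3′ as DNA letters, without the CCA end. Capitals mark the anticodon, found as the middle of a 7-base loop whose triplet reads the amino acid of the gene's name in the vertebrate mitochondrial code, with the best-paired stem of 5 positions around it. mt-Th (histidine, MT:11546-11612), mt-Ts2 (serine, MT:11613-11671), mt-Tl2 (leucine, MT:11671-11741), mt-Tk (lysine, MT:7700-7764) and mt-Tf (phenylalanine, MT:1-68) lie on the plus strand. mt-Ta (alanine, MT:5018-5086), mt-Tn (asparagine, MT:5089-5159) and mt-Te (glutamate, MT:14071-14139) lie on the minus strand.
mt-Th: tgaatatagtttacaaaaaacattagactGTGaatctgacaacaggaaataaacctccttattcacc
mt-Ts2: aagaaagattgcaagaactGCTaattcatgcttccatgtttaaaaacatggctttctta
mt-Tl2: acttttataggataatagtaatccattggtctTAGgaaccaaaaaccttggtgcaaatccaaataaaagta
mt-Ta: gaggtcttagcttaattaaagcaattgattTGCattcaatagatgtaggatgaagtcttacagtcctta
mt-Tn: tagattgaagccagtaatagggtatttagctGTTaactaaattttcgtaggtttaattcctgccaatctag
mt-Te: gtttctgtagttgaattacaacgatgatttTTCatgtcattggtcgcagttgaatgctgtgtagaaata
mt-Tk: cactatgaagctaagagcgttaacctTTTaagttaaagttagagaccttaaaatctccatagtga
mt-Tf: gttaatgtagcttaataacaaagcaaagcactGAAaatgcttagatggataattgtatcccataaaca

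Total counts were 47299957 to 51837721 in the KO and 45398303 to 53299322 in the WT libraries. The members took 0.0541% to 0.0660% of the counts in KO and 0.0610% to 0.0652% in WT libraries, so they were a minor part of libraries cut from a gel at the size of snoRNAs. The genotype labels were checked on the 10 snoRNAs of the Dlk1-Dio3 interval with any read, whose summed reads were 3, 2 and 2 in the KO libraries, against 87, 106 and 94 in the WT libraries. Blood-cell miRNA features (Mir142, Mir223 and Mir155) were present in every library, with a summed level of 15.9 to 23.53 CPM (counts per 1000000 counts of the library) in KO and 9.83 to 21.6 CPM in WT libraries. KO replicate 2 stood apart in the list of 5 miRNAs of other tissues, of which 4 were listed and Mir124a-1 was not. Their sum was 12.3 CPM in KO replicate 2 and 0.0619 to 0.859 CPM in the other libraries. The muscle miRNA feature Mir133a-1 had 118 reads in KO replicate 2 and 0 or 1 elsewhere. The liver miRNA feature Mir122 had 20 and 23 reads in WT replicates 1 and 2 and 0 or 1 elsewhere. By RNA length, the median log2 CPM of KO replicate 2 relative to the mean of the 6 libraries was -0.82 over the 71 tested features in the longest of 4 length classes (up to 350 nt) and 0.12 over the 143 in the shortest (50 to 75 nt). In the longest class the other libraries also differed, with 0.47 in KO replicate 1, -0.25 in KO replicate 3, and 0.04, 0.14 and 0.28 in WT replicates 1, 2 and 3. The B-lymphoid miRNA feature Mir150 had 4.002, 5.38 and 6.09 CPM in KO and 0.694, 3.19 and 2.28 CPM in WT libraries, which did not overlap. It was not called by edgeR (adjusted p = 0.710). The sum of 2 erythroid features was 1.97 to 7.56 CPM in KO and 1.14 to 3.07 CPM in WT libraries, and that of 6 features of primitive blood cells 61.5 to 81.2 CPM in KO and 40.1 to 94.7 CPM in WT libraries. That last sum is mostly Mir10a. By edgeR, 4 of the 6 features had a log2 fold change, KO over WT, above 0. The other 2, Mir10b (-0.26) and Mir99b (-0.02), were below 0. A pair of the 6 features did not overlap between the genotypes. Mir126a had 5.65, 7.60 and 17.4 CPM in KO and 0.544, 5.397 and 3.41 CPM in WT libraries, and Mir125a had 0.351, 0.482 and 0.275 CPM in KO and 0.0563, 0.220 and 0.118 CPM in WT libraries, with neither called by edgeR. Mir150, Mir126a and Mir125a were among 17 of the 624 tested features (2.72%) that did not overlap with KO higher. WT replicate 1 was the lowest library for 9 of the 12 blood-cell features. The part of cell composition, muscle or liver RNA, or RNA length in the results was not tested.

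The levels of the 22 tRNAs were very unequal, and the order was nearly the same in all 6 libraries. As RPKM, which is CPM divided by gene length in kilobases (mean of the 6 libraries), mt-Th had 1579, mt-Ta 835 and mt-Ts2 543 RPKM. At the other end mt-Tk had 0.717 and mt-Tf 2.69 RPKM. By mean RPKM the most abundant tRNA was 2203 times the least abundant, an imprecise ratio because mt-Tk had 14 reads in all 6 libraries together. mt-Th was first and mt-Tk last in 6 of 6 libraries. Levels here are reads, and how evenly the libraries captured different tRNAs was not tested. Across the 22 tRNAs the rank correlation of RPKM between libraries was 0.976 to 0.996 in the 15 pairs, as a description of libraries that share a protocol and a reference.

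Between these ends 7 tRNAs had at least 100 RPKM, 8 had 10 to 100 RPKM and 7 had less than 10 RPKM. The first class also held mt-Tq for glutamine (199 RPKM), the initiator and elongator tRNA of methionine mt-Tm (197 RPKM), mt-Tv for valine (180 RPKM) and mt-Ty for tyrosine (126 RPKM). The middle class held mt-Te (93.0 RPKM), mt-Tc for cysteine (75.3 RPKM), mt-Tg for glycine (64.8 RPKM), mt-Ti for isoleucine (55.9 RPKM), mt-Tl1 (27.9 RPKM), mt-Tp for proline (26.4 RPKM), mt-Tw for tryptophan (19.5 RPKM) and mt-Ts1 (17.2 RPKM). The rRNAs lay within the range of the first class, with 153 RPKM for mt-Rnr1 and 118 RPKM for mt-Rnr2. The lowest class held mt-Tt for threonine (9.74 RPKM), mt-Tl2 (8.21 RPKM), mt-Tn (4.71 RPKM), mt-Tr for arginine (3.74 RPKM) and mt-Td for aspartate (3.58 RPKM) beside mt-Tf and mt-Tk. Of these 7 poorly covered tRNAs, 6 are heavy-strand genes and 1, mt-Tn, is a light-strand gene.

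**Figure D1:**
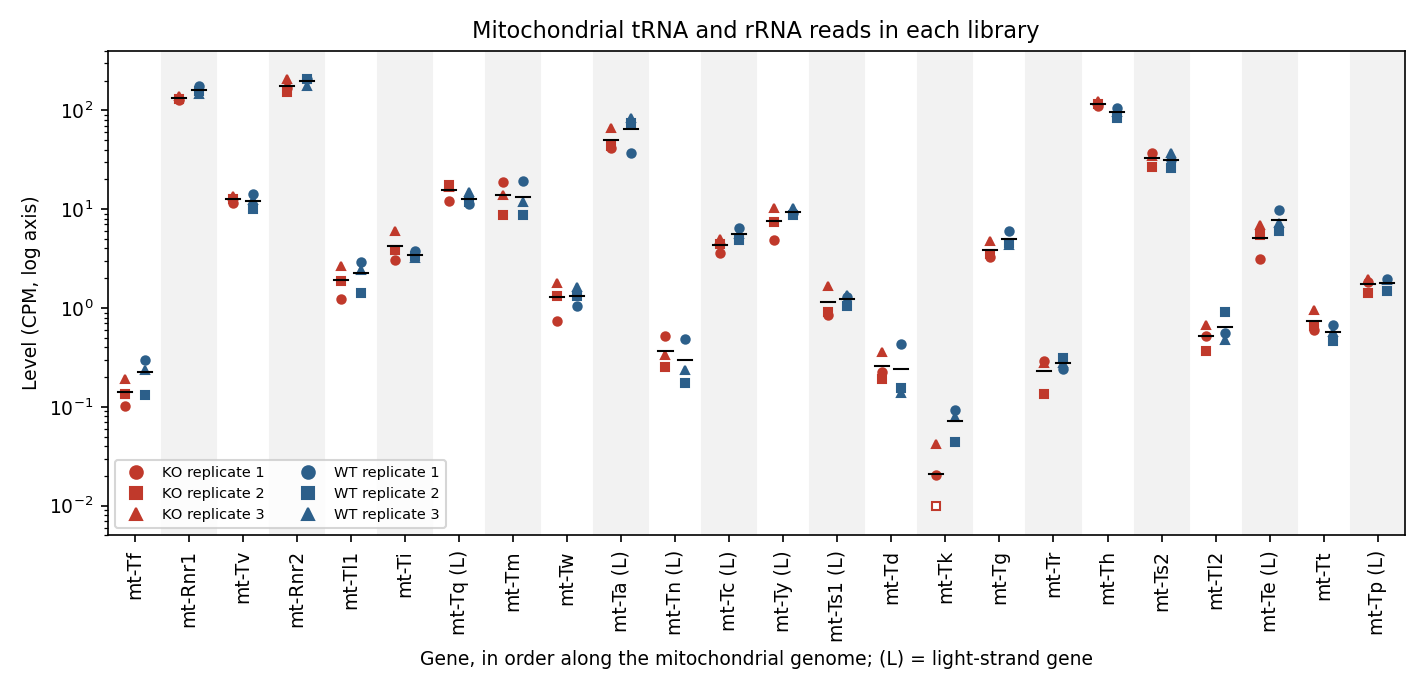
Reads of each mitochondrial tRNA and rRNA gene, in CPM on a log axis, in genome order, with 1 point per library (KO in red, left; WT in blue, right) and a black line at each genotype's mean. The genes differ far more from each other than the genotypes do; the open square marks the 0 reads of mt-Tk in KO replicate 2, drawn at the bottom because a log axis has no 0.

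Genes that lie close together on 1 strand had very different levels. In the heavy-strand run of mt-Th, mt-Ts2 and mt-Tl2, mt-Ts2 had 85.2, 87.6 and 61.9 times the reads per nt of mt-Tl2 in the KO libraries (replicates 1, 2 and 3) and 67.1, 35.0 and 93.5 times in the WT libraries. These genes share 1 nt, and the sources used here do not say how reads over it were counted. In the light-strand run of mt-Ta, mt-Tn, mt-Tc and mt-Ty, mt-Ta had 82.4, 179 and 201 times the reads per nt of mt-Tn in KO and 78.2, 435 and 361 times in WT libraries. On either side of mt-Rnr1, mt-Tv had 111, 91.7 and 70.6 times the reads per nt of mt-Tf in KO and 47.2, 74.2 and 51.2 times in WT libraries. The 3 ratios overlapped between the genotypes.

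Serine and leucine each have a pair of tRNAs, and these also differed in reads per nt. The serine tRNA mt-Ts2, the shortest of the 22 at 59 nt and known to lack the D arm, had 50.5, 34.4 and 24.4 times the reads per nt of mt-Ts1 in KO and 28.3, 29.0 and 31.6 times in WT libraries. The leucine tRNA mt-Tl1, which follows mt-Rnr2, had 2.27, 4.83 and 3.73 times the reads per nt of mt-Tl2 in KO and 4.95, 1.48 and 4.89 times in WT libraries. Both ratios overlapped between the genotypes.

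Gene sequence and strand were set beside the levels as a description. Over the 22 tRNAs, RPKM had a rank correlation of 0.29 with GC content and of -0.06 with gene length. The median was 23.7 RPKM for heavy-strand and 84.2 RPKM for light-strand tRNAs, but mt-Th and mt-Ts2 are heavy-strand genes. By the first anticodon base, which pairs with the third base of the codon, the median was 65.6 RPKM for the 8 tRNAs with G and 26.4 RPKM for the 13 with T, while mt-Tm alone has C. The G class held both mt-Th and mt-Tf, and the T class both mt-Ta and mt-Tk, so each spanned most of the range.

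No mitochondrial member passed the test between genotypes. The counts of all features were fitted with edgeR's quasi-likelihood test, and 22 of the 24 members passed the filter on low counts, all but mt-Tf and mt-Tk. Of the 624 features tested, 1 (0.16%) had an adjusted p under 0.05, the locus snoRNA DQ267100, against 0 of the 22 members. Without adjustment, p was under 0.05 for 40 features (6.41%) and 0 members by edgeR, and for 46 features (7.37%) and 1 member, mt-Th, by DESeq2. In alternative runs of edgeR the count of members with unadjusted p under 0.05 was 0 or 1. It was 1 of 22 with RLE size factors and 1 of 17 with at least 50 counts in 3 libraries. It was 1 of 23 without KO replicate 1, 1 of 22 without WT replicate 1 and 0 in every other run. For the runs with 1 member the count over all features was not taken. Whether 1 member exceeds the share of all features there was therefore not tested. Without the filter on low counts 13 of the 1823 features (0.713%) and 0 members were called. The smallest adjusted p of a member was 0.710 by edgeR and 0.389 by DESeq2, both for mt-Th.

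The estimates of the members lay on both sides of 0 and were small. On the log2 scale, KO over WT, 12 of the 22 were below 0, among them mt-Tw at -0.00014, and 10 above. The 22 had a range of -0.52 to 0.42 and a median of -0.03, while 369 of the 624 features (59.1%) were below 0 with a median of -0.08. The median size of the estimate, without its sign, was 0.23 for the members and 0.28 for all tested features. Another scaling moved the median of all features to 0.02 (RLE size factors) or -0.16 (library size alone). For the 20 tested tRNAs the median was 0.0080, and it was 0.16 without KO replicate 2, 0.15 without WT replicate 1 and -0.22 without KO replicate 3. The median of all tested features moved too, to 0.0067 without KO replicate 2, 0.0035 without WT replicate 1 and -0.04 without KO replicate 3. In bulk libraries such as these, fewer cells of a type and less RNA per cell cannot be told apart.

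**Figure D2:**
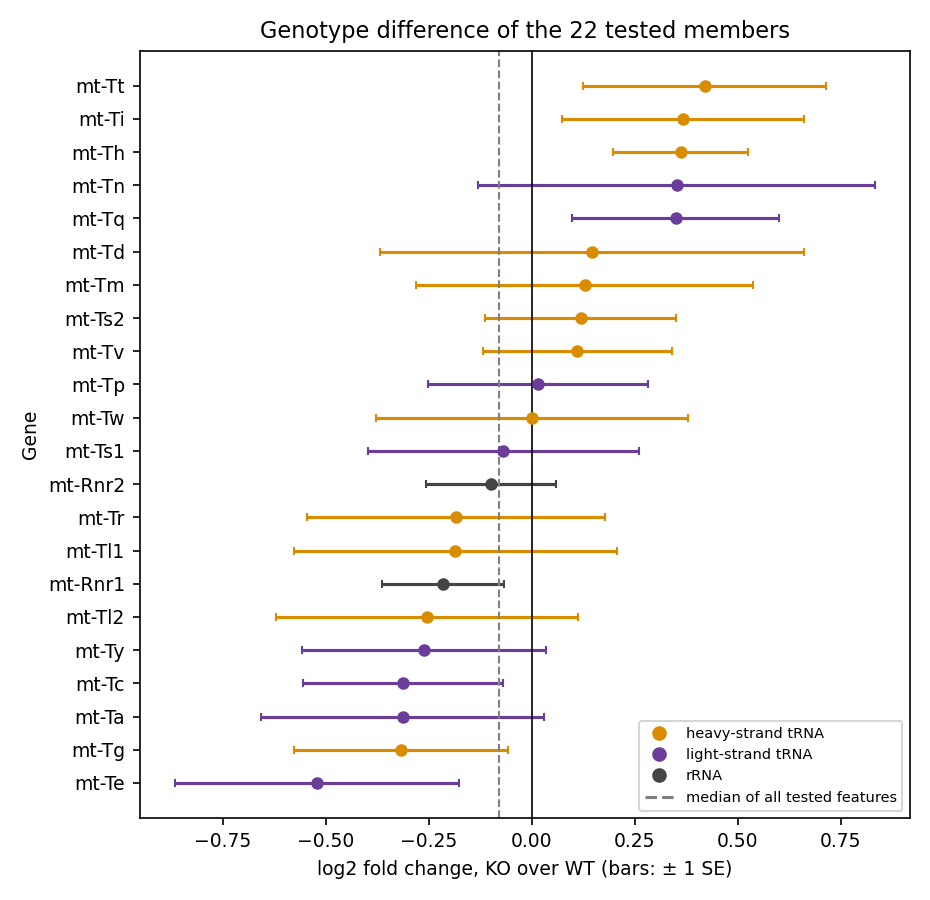
Fitted log2 fold change of the 22 tested members, KO over WT, with bars of 1 standard error (SE) on either side and a dashed line at the median of all tested features (-0.08). The estimates run from -0.52 for mt-Te to 0.42 for mt-Tt, and heavy- and light-strand tRNAs both lie on either side of 0.

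Both rRNAs had lower estimates in the KO libraries, and neither was called. mt-Rnr1, the small-subunit rRNA (MT:70-1024, 955 nt), had 126, 130.0 and 140 CPM in the KO libraries (replicates 1, 2 and 3) and 178, 155 and 147 CPM in the WT libraries. The genotypes did not overlap, although KO replicate 3 and WT replicate 3 lay close. Its means were 132 ± 7 CPM in KO and 160.3 ± 15.8 CPM in WT libraries (SD, n = 3 each), with a log2 fold change of -0.21 (SE 0.15) and an adjusted p of 0.733 by edgeR. The estimate was -0.04 without WT replicate 1, -0.11 without KO replicate 1, -0.14 without KO replicate 2 and -0.11 with RLE size factors. In each of these runs the median of all tested features was also higher than in the main fit. Both rRNAs are longer than the fragments recovered from the gel, so their reads are those of pieces.

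mt-Rnr2, the large-subunit rRNA (MT:1094-2675, 1582 nt), had 168, 154 and 207 CPM in KO and 209, 205 and 177 CPM in WT libraries. Here the genotypes overlapped, with KO replicate 3 close to the highest WT library. The log2 fold change was -0.10 (SE 0.16, adjusted p = 0.853 by edgeR). Its sign changed with RLE size factors (0.0053) and when KO replicate 1 (0.0020), KO replicate 2 (0.05), WT replicate 1 (0.04) or, likewise, WT replicate 2 (0.0080) was left out. The median of all tested features rose in these runs as well. The ratio of mt-Rnr1 to mt-Rnr2 reads was 0.752, 0.844 and 0.675 in KO and 0.850, 0.758 and 0.835 in WT libraries, which overlapped.

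A feature named for the cytosolic rRNA precursor (45S pre-rRNA) was set beside the mitochondrial rRNAs after its values had been seen. Whether its reads came from the precursor or from mature cytosolic rRNA was not tested. They are called 45S pre-rRNA reads here. This feature had 36121 ± 3222 CPM in KO and 48579 ± 2536 CPM in WT libraries (SD, n = 3 each). The single values were 36987, 32555 and 38822 CPM in KO and 48808, 50993 and 45937 CPM in WT libraries, which did not overlap. Among all 624 tested features, 78 (12.5%) did not overlap with KO lower. Its estimate on the log2 scale, -0.36 (SE 0.08), missed the threshold (adjusted p = 0.542 by edgeR). The ratio of mitochondrial rRNA reads to 45S pre-rRNA reads was 0.00796, 0.00872 and 0.00894 in the KO libraries (replicates 1, 2 and 3) and 0.00794, 0.00707 and 0.00705 in the WT libraries. KO replicate 1 and WT replicate 1 were nearly equal and the other KO libraries were above every WT library. On this scale the mitochondrial rRNAs averaged higher in KO, while in CPM they averaged lower. The ratio also carries the lower 45S pre-rRNA reads of every KO library.

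The most abundant tRNA, mt-Th for histidine, was the member with the smallest p, and it was not called. It had 109.8, 116 and 124 CPM in the KO libraries (replicates 1, 2 and 3) and 106, 83.0 and 95.7 CPM in the WT libraries. Every KO library was above every WT library, although KO replicate 1 and WT replicate 1 were close. The means were 117 ± 7 CPM in KO and 94.9 ± 11.6 CPM in WT libraries (SD, n = 3 each), with a log2 fold change of 0.36 (SE 0.16), an unadjusted p of 0.0649 and an adjusted p of 0.710 by edgeR. With any 1 library left out the estimate was 0.35 to 0.54 and the adjusted p 0.269 to 0.969. As a share of all mitochondrial tRNA reads, mt-Th had 43.1%, 45.1% and 39.6% in KO and 40.1%, 33.3% and 32.5% in WT libraries, which overlapped.

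mt-Rnr1 and mt-Th were the only tested members whose CPM did not overlap between the genotypes, 1 lower and 1 higher in KO. Among all 624 tested features 78 (12.5%) did not overlap with KO lower and 17 (2.72%) with KO higher, and 95 (15.2%) in either direction. The 2 of 22 members lie below that last share.

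The other abundant tRNAs overlapped between the genotypes. mt-Ta for alanine had 41.3, 43.7 and 66.0 CPM in KO and 37.1, 74.6 and 82.9 CPM in WT libraries. WT replicate 1 was the lowest of the 6, and the other WT libraries were the highest. The log2 fold change was -0.31 (SE 0.34, adjusted p = 0.788 by edgeR). Leaving out KO replicate 1 or 2 gave -0.12 or -0.15, and leaving out WT replicate 1, 2 or 3 gave -0.51, -0.13 or 0.00090. mt-Ts2 for serine had 36.5, 26.7 and 34.8 CPM in KO and 31.4, 26.2 and 36.7 CPM in WT libraries, with a log2 fold change of 0.12 (SE 0.23, adjusted p = 0.891). That estimate became 0.31 when KO replicate 2 was left out, and 0.20, 0.08 or 0.34 when WT replicate 1, 2 or 3 was.

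mt-Tq for glutamine had 12.01, 17.7 and 16.9 CPM in KO and 11.2, 11.9 and 14.97 CPM in WT libraries, which gave a log2 fold change of 0.35 (SE 0.25, adjusted p = 0.733 by edgeR). Its highest values were in KO replicates 2 and 3 and the genotypes overlapped. mt-Tm for methionine had 19.0, 8.74 and 13.8 CPM in KO and 19.4, 8.79 and 11.7 CPM in WT libraries, which gave a log2 fold change of 0.13 (SE 0.41, adjusted p = 0.941). It was highest in replicate 1 and lowest in replicate 2 of both genotypes, and the estimate was -0.12 without KO replicate 1, -0.02 without WT replicate 2, 0.44 without KO replicate 2 and 0.59 without WT replicate 1.

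At the ends of the range of estimates lay mt-Te and mt-Tt. mt-Te for glutamate, the light-strand tRNA next to mt-Nd6, had 3.09, 5.42 and 6.96 CPM in KO and 9.76, 6.06 and 7.23 CPM in WT libraries. KO replicate 1 was the lowest and WT replicate 1 the highest of the 6, and the genotypes overlapped through KO replicate 3 and WT replicate 2. The log2 fold change was -0.52 (SE 0.34, adjusted p = 0.733 by edgeR). Leaving out KO replicate 1 gave -0.18, and leaving out WT replicate 1 gave -0.23.

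mt-Tt for threonine had 29, 34 and 45 reads in KO and 36, 21 and 29 reads in WT libraries, or 0.735 ± 0.189 CPM in KO and 0.570 ± 0.106 CPM in WT libraries (SD, n = 3 each). KO replicate 3 was the highest, and the genotypes overlapped. The log2 fold change was 0.42 (SE 0.30, adjusted p = 0.733 by edgeR), and it was 0.28 to 0.64 with any 1 library left out.

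Log2 fold changes of the other 13 tested tRNAs ran from -0.32 for mt-Tg to 0.37 for mt-Ti, and all 13 overlapped in CPM.

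The members that did not pass the filter had few reads. mt-Tk for lysine had 1, 0 and 2 reads in KO and 5, 2 and 4 reads in WT libraries, so it was nearly undetected in both genotypes. In CPM every KO library was below every WT library, although KO replicate 3 and WT replicate 2 had 2 reads each. Its pooled level in KO was 0.276 of that in WT, with a 95% counting interval of 0.0494 to 1.05 that includes 1, and with any 1 library left out the ratio was 0.135 to 0.426. A library's floor of 3 counts is 0.0563 to 0.0661 CPM. mt-Tf for phenylalanine, the first gene of the heavy-strand transcript, had 5, 7 and 9 reads in KO and 16, 6 and 12 reads in WT libraries, a pooled ratio of 0.625 with an interval of 0.345 to 1.11.

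Heavy-strand tRNAs as a sum were somewhat higher and light-strand tRNAs somewhat lower in KO libraries, and both sums overlapped between the genotypes. The 14 heavy-strand tRNAs together had 187, 176 and 204 CPM in the KO libraries (replicates 1, 2 and 3) and 188, 141 and 169.7 CPM in the WT libraries. The 8 light-strand tRNAs together had 68.0, 81.3 and 109 CPM in KO and 77.3, 108.9 and 124 CPM in WT libraries. The first sum is mostly mt-Th and the second mostly mt-Ta, and the sums carry no test.

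The ratio of light-strand to heavy-strand tRNA reads, which needs no scaling between libraries, was 0.363, 0.461 and 0.535 in KO and 0.412, 0.775 and 0.733 in WT libraries. WT replicates 2 and 3 were above every KO library, while WT replicate 1 lay among them. The means were 0.453 ± 0.086 in KO and 0.640 ± 0.198 in WT libraries (SD, n = 3 each), and their difference was smaller than the SD of the WT libraries. The log2 ratio of these means, KO over WT, was -0.50, and it was -0.13 once mt-Th and mt-Ta, the most abundant tRNA of each strand, were left out of the sums. Tested singly, 5 of the 12 heavy-strand tRNAs had lower and 7 higher estimates in KO, with a median log2 fold change of 0.12. Of the 8 light-strand tRNAs 5 had lower and 3 higher estimates, with a median of -0.17. The light-strand median was -0.0048 without KO replicate 2, -0.04 without WT replicate 1 and -0.35 without KO replicate 3. It was above 0 without KO replicate 1 (0.04) and without WT replicate 3 (0.05). The difference between the strands was not tested.

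**Figure D3:**
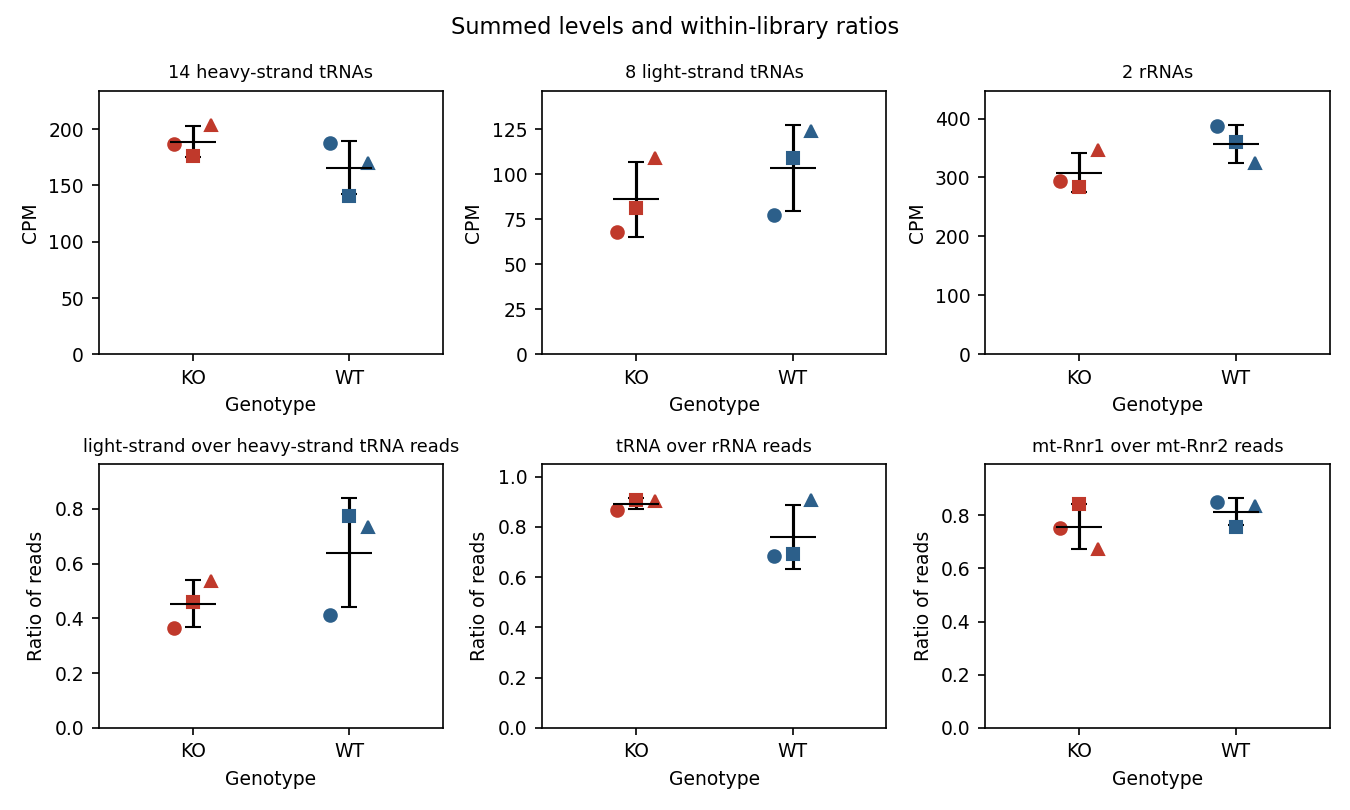
Summed CPM of the heavy-strand tRNAs, the light-strand tRNAs and the rRNAs (top), and the ratios of reads within a library (bottom), with 1 point per library (circle, square and triangle for replicates 1, 2 and 3), the mean as a bar and the SD as whiskers. In all 6 panels the KO and WT points overlap, and WT replicate 1 (0.412) lies among the KO libraries in the light-strand to heavy-strand ratio.

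tRNA and rRNA reads were also compared within libraries. The ratio of tRNA to rRNA reads was 0.867, 0.907 and 0.901 in KO and 0.684, 0.692 and 0.908 in WT libraries. The KO libraries were close together, WT replicates 1 and 2 lay below them and WT replicate 3 lay with them. Summed over all 24 members the level was 584 ± 66 CPM in KO and 627 ± 22 CPM in WT libraries (SD, n = 3 each), with overlapping values.

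Within the tRNA pool, mt-Th, mt-Ta and mt-Ts2 together held 73.6%, 72.5% and 71.8% of the reads in KO and 65.9%, 73.7% and 73.2% in WT libraries. The share of mt-Te was 1.21%, 2.11% and 2.22% in KO and 3.68%, 2.43% and 2.46% in WT libraries. It was lower in every KO library than in every WT library, and so were the shares of mt-Tc and mt-Ty, which decode cysteine and tyrosine. Of the 20 tested tRNAs, these 3 had a lower share without overlap and none a higher one, while 100 of the 624 tested features (16.0%) were lower and 10 (1.6%) higher without overlap on the same scale. The 3 of 20 tRNAs with a lower share lie close to that 16.0% of all tested features. All 3 are light-strand genes, chosen here after their values were seen, and in CPM each overlapped between the genotypes.

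Along the chromosome, neighbours did not share a direction throughout. In the cluster of mt-Ti, mt-Tq and mt-Tm all 3 estimates were above 0, with a median log2 fold change of 0.35, although mt-Tq lies on the other strand. mt-Ti and mt-Tq share 3 nt, and the sources used here do not say whether counting used strand. In the cluster of mt-Tw, mt-Ta, mt-Tn, mt-Tc and mt-Ty 4 of 5 were below 0, with a median of -0.26, but mt-Tw only just (-0.00014, SE 0.38). mt-Tn with 100 reads in all was above 0 (0.35, SE 0.48). In the cluster of mt-Th, mt-Ts2 and mt-Tl2 the estimates were 0.36, 0.12 and -0.25. By anticodon, 8 of the 12 tested tRNAs with T as the first base and 2 of the 7 with G had estimates below 0. None of these members was called.

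Libraries differed from each other in patterns that cut across genotype. For the 17 members with a mean of at least 50 reads, the coefficient of variation was 5.29% to 41.1% among the KO and 7.90% to 41.3% among the WT libraries. The ratio of the highest to the lowest of the 6 libraries was 1.36 for mt-Rnr2 and 3.15 for mt-Te. KO replicate 1 was low for mt-Te, mt-Ty, mt-Tw and mt-Tl1, by 0.97, 0.76, 0.76 and 0.69 on the log2 scale relative to the mean of the 6 libraries, and high for mt-Tm by 0.56. KO replicate 3 was above that mean for 16 of these 17 members and WT replicate 1 for 13.

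**Figure D4:**
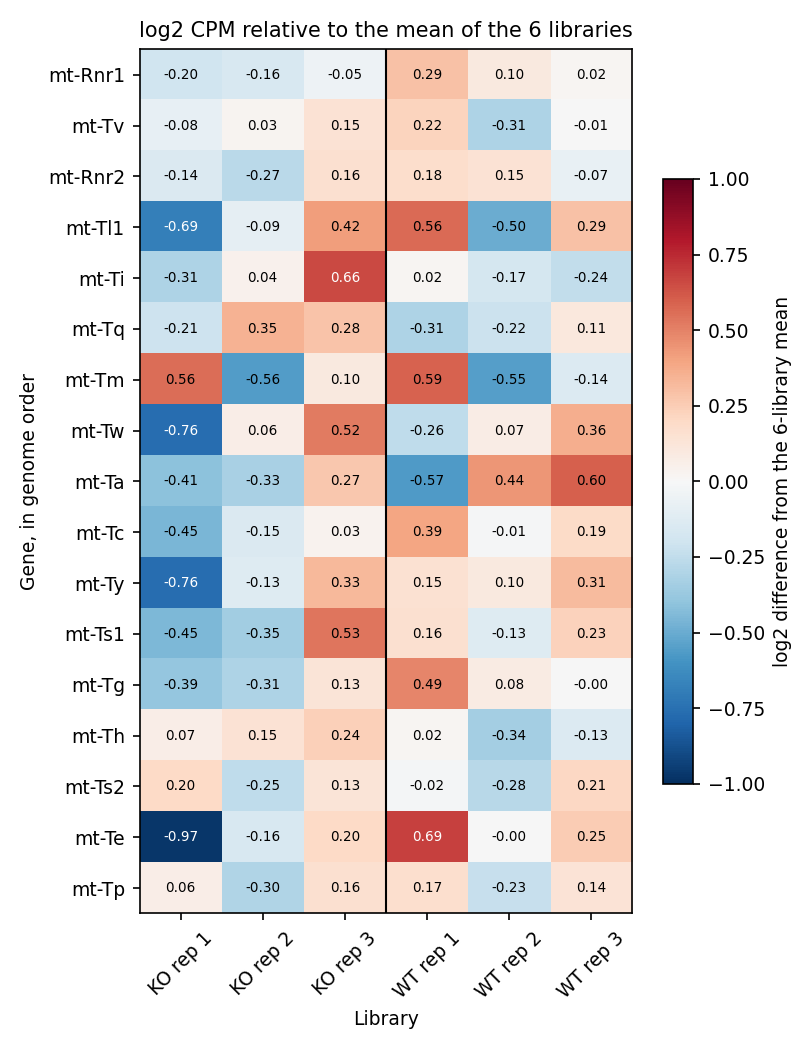
log2 CPM of the 17 members with at least 300 reads over the libraries, in genome order, relative to each member's mean over the 6 libraries, with KO libraries left of the line and WT libraries right. The lowest value is that of mt-Te in KO replicate 1 (-0.97), and mt-Tm is high in replicate 1 and low in replicate 2 of both genotypes.

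Nuclear RNAs linked to mitochondria were read from the same fit. Of 10 named RNAs, 8 were listed, 4 passed the filter, and all 4 had estimates above 0 and were not called. Mir21a had 1043 ± 240 CPM in KO and 892 ± 479 CPM in WT libraries (SD, n = 3 each). Mir378a, whose host gene Ppargc1b encodes a coactivator of mitochondrial genes, had 16.3 ± 6.1 CPM in KO and 14.6 ± 5.4 CPM in WT libraries, with a log2 fold change of 0.24 (SE 0.38, adjusted p = 0.862 by edgeR). Mir181c had 1.71 ± 0.93 CPM in KO and 1.23 ± 0.45 CPM in WT libraries and Mir155 had 0.317 ± 0.122 CPM in KO and 0.317 ± 0.167 CPM in WT libraries. The muscle features Mir1a-1 and Mir1a-2, on this list and on that of other tissues, had 258 and 262 reads in KO replicate 2 and at most 9 elsewhere.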

How the data were processed

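Small RNA libraries of 3 KO and 3 WT samples, grouped by title, were analysed. The deposited values are whole-number read counts per feature. Per the submitters' processing notes, Trimmomatic 0.38, Bowtie2 2.3.4.1 and GRCm38 were used. The sources used here do not give the counting tool, its use of strand or its treatment of reads that match several places, such as nuclear copies of mitochondrial DNA. Features were matched to GENCODE M21 by start and end (1822 of 1823). Counts were fitted with edgeR 4.0.16 (R 4.3.3; quasi-likelihood test, TMM, default filter with a minimum count of 10, Benjamini-Hochberg adjustment over 624 features, threshold 0.05), with DESeq2 1.42.0 as an alternative. CPM used library totals, which ranged from 45398303 to 53299322. Intervals (95%) and the floor of 3 counts cover counting error only. Members, lists and tests were chosen with earlier results of these data known. Full statistics are given for both rRNAs, the 5 most abundant tRNAs, the 3 smallest p-values, the lowest and highest fold change, and members whose CPM do not overlap. The marker lists (haematopoietic, primitive, erythroid, B-lymphoid and other tissues) are described by level. Rmrp and Rpph1, on the list of nuclear RNAs, had no listed feature under their names, and 5S rRNA was not analysed here.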

Additional observations from a re-analysis of the deposited data

How the results depend on the processing

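No mitochondrial member was called under any alternative run (RLE size factors, library size alone, no filter, at least 50 counts in 3 libraries, DESeq2, the replicate block, or any 1 library left out). Over all features the number called was 1, against 13 without the filter, 0 with the replicate block and 0 to 1 with 1 library left out, being 0 without KO replicate 3 or any WT replicate. Whether the replicate numbers pair the samples is not stated. Deviations of same-numbered libraries correlated at -0.13, 0.40 and -0.36, and those of other pairs of a KO and a WT library at -0.46 to 0.59. Not every library correlated best with its own number, and so few correlations cannot settle whether the samples are paired. With 1 library left out, the median log2 fold change was -0.22 to 0.16 for the tRNAs and -0.063 to 0.27 for the heavy-strand tRNAs, both lowest without KO replicate 3, and -0.35 to 0.05 for the light-strand tRNAs. The estimate of mt-Rnr2 was 0.0053 with RLE size factors and 0.0053 with DESeq2, and -0.15 to 0.051 with 1 library left out. The ranges were -0.51 to 0.00090 for mt-Ta and -0.12 to 0.59 for mt-Tm. With RLE-scaled library sizes the log2 ratio of summed levels was 0.064 for all members (-0.10 by library total), 0.36 for heavy-strand tRNAs (0.19) and -0.045 for the rRNAs (-0.21), and relative to 45S pre-rRNA reads it was 0.22 for the rRNAs. That last alternative and the share of tRNA reads were chosen after seeing the data. Without KO replicate 2 the log2 light-strand to heavy-strand ratio was -0.51, with any 1 library left out it was -0.73 to -0.34, and without mt-Th and mt-Ta it was -0.13 (-0.50 with all tRNAs). Without the most abundant tRNA and rRNA the log2 tRNA to rRNA ratio was 0.12 (0.23 with all). Over the alternative runs of the genes given full statistics, 111 results kept their direction and 9 changed sign. The sign changes were those of mt-Rnr2, mt-Tm and mt-Ta, several of them from mt-Rnr2. The runs of mt-Tk and of the share of tRNA reads carried no test. Few reads limit mt-Tk and mt-Tf, and 3 libraries a genotype limit all comparisons. The cause of these differences was not tested.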
